A study of Xenopus laevis with 40 samples.

Results

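The comparison concerns Xenopus laevis animal cap explants at developmental stage 32 that had received nicd mRNA, the intracellular and active domain of the receptor Notch, set against uninjected explants (ctrl) of the same stage. It takes 4 of the 40 libraries of the series, chosen by their titles: 2 nicd and 2 ctrl libraries, 1 of each from experiment 1 and from experiment 2, which used different females and fertilizations. Per the labels' protocols, nicd mRNA at 120 ng/ul was delivered in 4 injections to the animal hemisphere of wild-type 4-cell embryos, the ctrl embryos were left untreated, and explants of both groups were cut at stage 8, healed and grown in buffered saline to stage 32. The labels name no mock injection, so injection itself differs between the groups along with nicd, and they do not say how many explants were pooled for a library. Gene-level counts of poly-A RNA were deposited for every library. A series of stages in the same explants, of which stages 16 and 25 are used here, shows the earlier state of the tissue.

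The epidermis that forms from the animal cap is mucociliary, like the lining of the airway: goblet cells secrete mucus, multiciliated cells drive it, ionocytes acidify and pump ions, small secretory cells release serotonin and defence proteins, and basal cells lie beneath. Notch is cut on contact with Delta or Jagged ligands on a neighbour, and its freed intracellular domain joins the DNA-binding protein Rbpj and Maml proteins to switch on hes, hey and nrarp genes. In this tissue Notch restrains the early choice to become a multiciliated cell or an ionocyte, so the comparison asks what an early rise of Notch leaves in the mature epidermis.

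At stage 32 most genes of motile cilia were lower in nicd explants, many of them near 0, and so were several regulators, carriers and proton pump subunits of ionocytes, while the genes that start the multiciliated programme were near 0 in both groups. A smaller set of genes was higher, among them hes and hey genes, simple-epithelial keratins, basement membrane genes, Wnt ligands and genes of the cement gland. In the edgeR quasi-likelihood test 1843 genes were called, that is, had a Benjamini-Hochberg adjusted p under 0.05, which is 5.82% of the 31647 genes tested with the notch1 copies left out. Of these, 1282 (4.05%) were lower and 561 (1.77%) higher in nicd explants, and the called genes had a median log2 fold change of -4.11 among those lower and of 2.30 among those higher. All genes tested had a median of 0.00.

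The fall was of another size than the rise. Among genes called lower, 521 lay beyond a log2 fold change of -5 and 159 had no count in either nicd library. Among genes called higher, 94 lay beyond 5 and 44 had no count in either ctrl library. Of the 1843 called genes, 1840 had the same sign in both experiments. The call rests on these same libraries and favours genes that move alike in both, so this is no independent check. For genes called higher the log2 ratio was larger in experiment 1 for 430 of 561, and for genes called lower it was larger in size in experiment 1 for 612 of 1282. With the experiment as a block, 2452 genes were called with 1 experiment term (859 higher, 1593 lower), and 4798 (15.2%; 2061 or 6.51% higher, 2737 or 8.65% lower) with a term for each stage. All 1843 genes were among both. Leaving out 1 of the 4 libraries left between 989 (without nicd of experiment 1) and 1329 calls (without nicd of experiment 2), and 757 of the 1843 genes were called whichever library was left out. The number of genes called higher was 192 without nicd of experiment 1, 180 without ctrl of experiment 1 and 209 without ctrl of experiment 2. The number called lower was 797 without nicd of experiment 1.

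**Figure D1:**
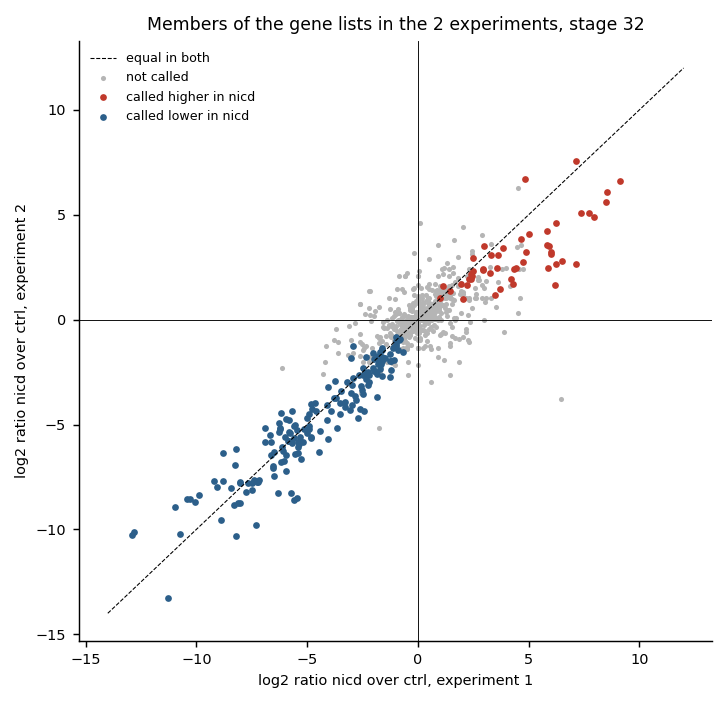
Each point is 1 gene copy of the gene lists. The axes give its log2 ratio of nicd over ctrl at stage 32 in experiment 1 (horizontal) and experiment 2 (vertical), with genes called higher in red, called lower in blue and not called in grey. Blue points lie near the dashed line of equality down to -10 and beyond, and most red points lie below it, where experiment 1 had the larger ratio.

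The 4 libraries held between 25901215 and 52675155 assigned counts (46142737 and 37018425 in nicd, 52675155 and 25901215 in ctrl), within the 20177357 to 99359750 of all 40. Notch1.S, to which reads of the injected mRNA may have been assigned, was at 94.9 and 379 CPM (counts scaled to library size) in nicd explants, against 11.8 and 11.4 CPM in ctrl explants, and was thus the lower of the nicd pair in experiment 1. One gene sets libraries apart: cetn4.L, which encodes a centrin and was singled out after its values were seen, was at 1742 and 2.40 CPM in nicd explants, against 19.2 and 34.2 CPM in ctrl explants. It was also at 1297 to 1497 CPM in the other injected stage 32 libraries of experiment 1 and at 4.32 to 32.2 CPM in those of experiment 2. It was not called (adjusted p = 0.624). The labels name no injected centrin, and whether these reads come from the embryos' own gene or from injected material was not tested, so it is given no direction here.

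Epidermal identity was checked with markers of surface ectoderm. Of 24 copies in that list 1 was called higher (epcam.L) and 4 lower (4.17% and 16.7%, against 1.77% and 4.05% of all genes). The 4 lower were both copies of foxi1 and foxj1.L and foxj1.S, which mark ionocytes and multiciliated cells and are described later. Transcription factors of the whole tissue (tfap2a, tfap2c, dlx3, dlx5, gata2, gata3, tp63) and the cadherin cdh1 had counts in all 4 libraries and were not called. Epcam.L, an epithelial adhesion molecule, had 1973 and 2097 CPM in nicd explants, against 683 and 842 CPM in ctrl explants, with no overlap (log2 fold change 1.41 ± 0.34, adjusted p = 0.00866). That call was lost whichever of the 4 libraries was left out (adjusted p 0.0526 to 0.14). Among all genes tested, 46.7% did not overlap between the groups, so a lack of overlap in 1 gene carries little weight here and below. In bulk tissue fewer cells of a type and less RNA per cell cannot be told apart, and this holds for every result that follows.

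**Figure D2:**
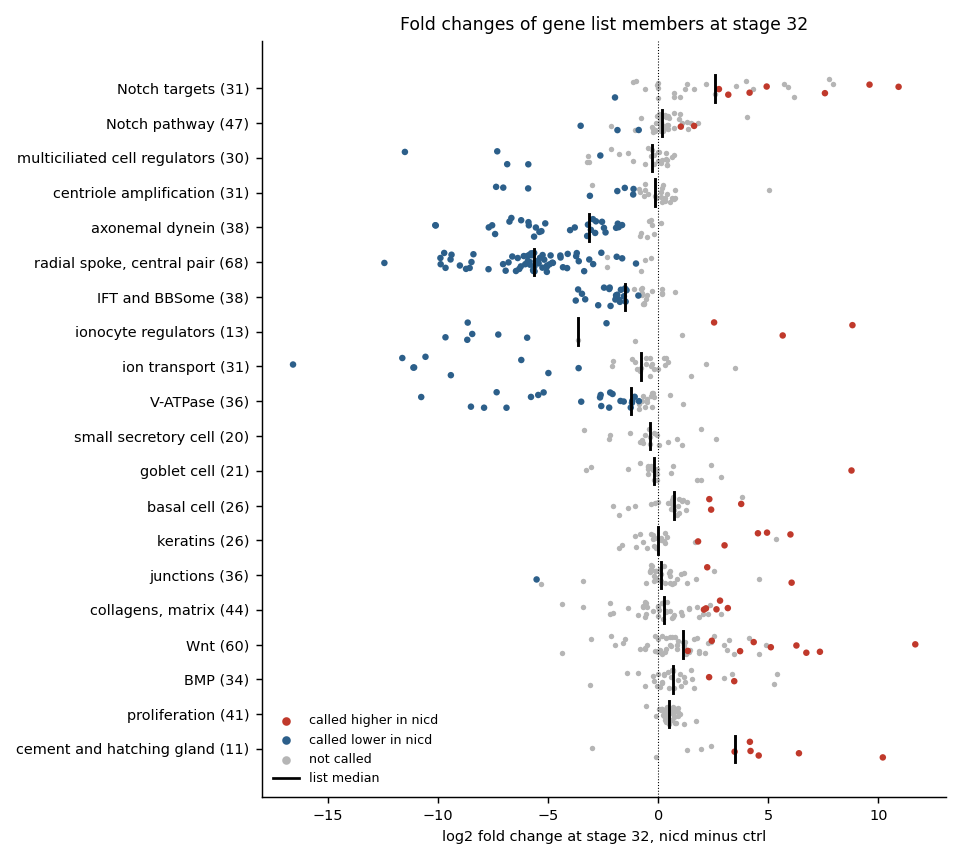
Each point is 1 gene copy of a list, placed by its log2 fold change at stage 32 (nicd minus ctrl). The number of copies tested is in brackets, called copies are red (higher) or blue (lower), others grey, and the black bar is the list's median. Cilium motility lists lie almost wholly to the left, with medians of -3.13 for dyneins and -5.63 for radial spoke and central pair genes, while Notch targets and cement and hatching gland genes have medians of 2.59 and 3.47.

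Direct readouts of Notch remained raised in part. Of 31 copies of hes, hey, nrarp and lfng genes that passed the filter on low counts (of 32 in the table), 7 were called higher and 1 lower, with a median log2 fold change of 2.59. That is 22.6% and 3.23%, against 1.77% and 4.05% of all genes. Hes5.1.S, a repressor switched on directly by Notch, had 10.3 and 1.67 CPM in nicd explants, against 0 and 0 CPM in ctrl explants. It was thus counted only in nicd explants, at least 169.8-fold higher than a floor of 3 counts over both ctrl libraries (log2 fold change 10.92 ± 1.94, adjusted p = 0.000505). This log2 fold change, like that of any gene with no count in a group, depends on the prior count of the fit. Hey1.L, another repressor of the family, had 24.5 and 5.81 CPM in nicd explants, against 0.835 and 0.849 CPM in ctrl explants (log2 fold change 4.15 ± 0.74, adjusted p = 0.000431), and hey1.S had 35.4 and 14.5 CPM in nicd explants, against 4.42 and 2.78 CPM in ctrl explants (log2 fold change 2.76 ± 0.64, adjusted p = 0.00698). The groups did not overlap for either copy, and the nicd library of experiment 1 was the higher of the nicd pair for all 3 genes. Further calls fell on hes5.1.L (at least 66.5-fold higher), hes5.9 (at least 16.4-fold higher) and both copies of hes5.10, of which hes5.10.S had 22.6 and 2.00 CPM in nicd, against 0.247 and 0.618 CPM in ctrl explants (log2 fold change 4.93 ± 0.98, adjusted p = 0.00148).

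Other readouts of the pathway did not pass. Nrarp.S, which encodes a feedback inhibitor that binds the Notch complex, had 49.8 and 32.04 CPM in nicd explants, against 9.64 and 17.1 CPM in ctrl explants (log2 fold change 1.62 ± 0.51 (adjusted p = 0.0617)). With the experiment as a block its adjusted p was 0.0491 with 1 term and 0.0125 with a term per stage. Hes4.L, at 75.98 and 37.04 CPM in nicd explants, against 32.9 and 23.1 CPM in ctrl explants, had an adjusted p of 0.104, and 0.0182 with a term per stage. For both genes the groups did not overlap, as held for 46.7% of all genes tested. Hes1.L, at 1.67 and 9.10 CPM in nicd explants, against 8.54 and 7.68 CPM in ctrl explants, overlapped between groups (adjusted p = 0.77), as did hes1.S. The single copy called lower was lfng.S, a glycosyltransferase that alters how Notch reads its ligands (0.520 and 1.57 CPM in nicd, against 4.10 and 3.86 CPM in ctrl; log2 fold change -1.97 ± 0.56 (adjusted p = 0.0341)).

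With the experiment as a block the target list gave 10 higher and 1 lower calls with 1 term, where 859 and 1593 of all 31647 genes were called. With a term per stage it gave 13 higher and 2 lower, against 6.51% and 8.65% of all genes. Without nicd of experiment 1 it gave 2 higher calls, with 2.73 for hey1.L (adjusted p = 0.0347). Calls were lost for hey1.S (adjusted p = 0.193), hes5.1.L (0.136), hes5.9 (0.286), hes5.10.S (0.282, at a log2 fold change of 2.27) and lfng.S (0.45). It gave 3 higher calls without ctrl of experiment 1 and 4 without ctrl of experiment 2. Hes5.1.S and hey1.L stayed called whichever library was left out.

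Among 47 copies of ligands, receptors other than notch1 and processing genes, 2 were called higher and 3 lower, against 1.77% and 4.05% of all genes. With a block term per stage 8 were higher and 4 lower, against 6.51% and 8.65% of all genes. Of the ligands, dll1.S, a Delta ligand, had 39.2 and 51.7 CPM in nicd explants, against 30.3 and 58.95 CPM in ctrl explants, and the groups overlapped (log2 fold change 0.03 ± 0.77 (adjusted p = 1)). Jag1.L, at 19.7 and 7.94 CPM in nicd explants, against 6.87 and 2.74 CPM in ctrl explants, did not overlap, as held for 46.7% of all genes. It was not called (adjusted p = 0.151, and 0.0361 with a block term per stage). Of the receptors, notch3.S had 19.3 and 9.08 CPM in nicd explants, against 4.48 and 4.59 CPM in ctrl explants (log2 fold change 1.63 ± 0.40, adjusted p = 0.00969). Maml1.L, the co-activator of the Notch complex, had 18.4 and 21.5 CPM in nicd explants, against 8.68 and 10.8 CPM in ctrl explants (log2 fold change 1.03 ± 0.26, adjusted p = 0.0129). Lower were both copies of mib2, a ubiquitin ligase that makes ligands active, with log2 fold changes of -0.89 and -1.85, and numbl.S, from the family of Notch inhibitors that includes Numb (-3.53). These 5 calls rest on few libraries: those of maml1.L and mib2.L were lost whichever library was left out (adjusted p 0.0501 to 0.196 and 0.0981 to 0.246). Those of notch3.S (0.404 without nicd of experiment 1, 0.0983 and 0.11 without ctrl of experiments 1 and 2), mib2.S (0.16 and 0.109 without nicd of experiments 1 and 2, 0.128 without ctrl of experiment 1) and numbl.S (0.169 without nicd of experiment 2, 0.0756 without ctrl of experiment 1) were lost in some.

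Of 30 copies of multiciliated cell regulators tested (of 31 in the table), 5 were called lower (16.7%, against 4.05% of all genes). The others were not called. The starters of the programme, gmnc and mcidas, were at or below 0.116 CPM in all 4 libraries, so no fold is given for them. Ccno, a cyclin-like protein needed to make many centrioles, was at or below 0.190 CPM in all 4 libraries. Foxn4.L, a forkhead factor of multiciliated cells, had 3.51 and 5.43 CPM in nicd explants, against 3.40 and 7.03 CPM in ctrl explants, and rfx2.L, which switches on cilium genes, had 11.2 and 7.86 CPM in nicd explants, against 11.8 and 10.8 CPM in ctrl explants. Both overlapped between the groups (adjusted p = 0.985 and 0.849).

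Foxj1, the regulator that keeps motile cilium genes on, was lower in all its copies. Foxj1.S had 0.477 and 0.162 CPM in nicd explants, against 39.6 and 66.1 CPM in ctrl explants (log2 fold change -7.32 ± 1.06, adjusted p = 3.15e-05). Foxj1.L had 0.130 and 0.270 CPM in nicd explants, against 17.3 and 29.03 CPM in ctrl explants (log2 fold change -6.87 ± 0.79, adjusted p = 1.23e-06). Every ctrl library stood above every nicd library by far, and foxj1.2.L fell likewise (log2 fold change -5.91 ± 0.84 (adjusted p = 2.54e-05)). Znf474.S, a zinc finger gene of the list, had 0 and 0 CPM in nicd explants, against 7.69 and 10.46 CPM in ctrl explants, at least 238-fold lower than in ctrl. Myb.L, a regulator of centriole amplification, had 2.21 and 3.08 CPM in nicd explants, against 7.84 and 5.41 CPM in ctrl explants (adjusted p = 0.299, and 0.0124 with a block term per stage).

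Genes of centriole amplification showed a small core of change. Of 31 copies tested (of 33), 8 were called lower (25.8%, against 4.05% of all genes), and the list's median was -0.17. Ccdc78.S, a component of the structures that nucleate centrioles, had 0.260 and 0.216 CPM in nicd explants, against 27.2 and 36.5 CPM in ctrl explants (log2 fold change -7.04 ± 0.76, adjusted p = 6.09e-07). Fam92b.L, a basal body protein, had 0.0217 and 0.243 CPM in nicd explants, against 20.2 and 21.8 CPM in ctrl explants (log2 fold change -7.37 ± 1.14, adjusted p = 8.44e-05), and cep41.S, needed for tubulin glutamylation in cilia, had 1.13 and 1.76 CPM in nicd explants, against 8.69 and 16.1 CPM in ctrl explants (log2 fold change -3.11 ± 0.46, adjusted p = 4.06e-05). None of the 4 libraries broke the separation in these genes. Nek10.L, a ciliary kinase, fell by 5.91 on the log2 scale (adjusted p = 0.00117), a call lost without nicd of experiment 1 (adjusted p = 0.0554). The list then gave 4 calls. Plk4, cep152, sass6 and stil, which also build centrioles in dividing cells, were not called in any copy. Deup1.L, which scaffolds the centriole factory of multiciliated cells, was low in both groups (0 and 0.108 CPM in nicd, against 0.380 and 0.463 CPM in ctrl; adjusted p = 0.278, and 0.027 with a block term per stage).

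Parts of the moving axoneme were lower in large number. Of 38 copies of axonemal dynein subunits and their assembly factors (of 40 in the table), 30 were called lower (78.9%, against 4.05% of all genes). The summed level of the list was 196 and 173 CPM in nicd explants, against 1503 and 1498 CPM in ctrl explants. Dnah9.S, an outer arm heavy chain, had 0.0433 and 0.270 CPM in nicd explants, against 176 and 159.9 CPM in ctrl explants (log2 fold change -10.13 ± 1.12, adjusted p = 7.34e-07). Dnah1.L, an inner arm heavy chain, had 0.0217 and 0.108 CPM in nicd explants, against 72.8 and 67.2 CPM in ctrl explants (log2 fold change -10.11 ± 1.24, adjusted p = 3.43e-06). The ctrl libraries held these transcripts at a steady level and the nicd libraries held almost none. Dnah3.S, another inner arm chain (0.0650 and 0.432 CPM in nicd, against 48.7 and 40.2 CPM in ctrl), and armc4.S, which docks outer arms (0.347 and 0.270 CPM in nicd, against 64.1 and 65.4 CPM in ctrl), fell by 7.55 and 7.70 on the log2 scale. The 8 copies not called lay nearer to 0 than the median, and included the cytoplasmic assembly factors dnaaf2 and dnaaf5.

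Radial spoke, central pair, tektin and other motility genes fell most as a group. Of 68 copies tested (of 72), 63 were called lower (92.6%, against 4.05% of all genes). All 68 had a log2 fold change below 0, between -12.45 and -0.31. The lower end, of lrrc36.L, depends on the prior count, as nicd explants held no count of it. The summed level of all 72 copies in the table was 115 and 108 CPM in nicd explants, against 2598 and 2691 CPM in ctrl explants. Efhc2.L, a protein of the microtubule doublets, had 0 and 0.108 CPM in nicd explants, against 45.5 and 52.6 CPM in ctrl explants (log2 fold change -9.89 ± 0.93, adjusted p = 7.69e-08). Cfap52.S, another protein of the doublet, had 0.0217 and 0 CPM in nicd explants, against 14.05 and 11.2 CPM in ctrl explants; with 1 count left in nicd its ratio was 1089-fold lower, with a 95% exact counting interval of 195 to 43056. C1orf158.L (0 and 0.0540 CPM in nicd, against 25.2 and 26.9 CPM in ctrl) and lrrc36.L (0 and 0 CPM in nicd, against 13.2 and 21.6 CPM in ctrl) were also among the 4 with the largest changes.

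Genes of transport into cilia were the next group. Of 38 copies of intraflagellar transport and BBSome genes (of 39), 21 were called lower (55.3%, against 4.05% of all genes), with a median of -1.50. The summed level was 248 and 213 CPM in nicd explants, against 566 and 642 CPM in ctrl explants. Dync2h1.L, the heavy chain of the return motor, had 1.67 and 1.216 CPM in nicd explants, against 21.2 and 17.2 CPM in ctrl explants (log2 fold change -3.75 ± 0.54, adjusted p = 3.17e-05). Ttc26.L, an IFT-B subunit, had 2.15 and 1.11 CPM in nicd explants, against 17.3 and 23.5 CPM in ctrl explants (log2 fold change -3.64 ± 0.42, adjusted p = 1.35e-06). Ift81.S and traf3ip1.S, 2 further IFT-B genes, fell by 3.47 and 3.32 on the log2 scale. Groups did not overlap for 36 of the 38 copies, against 46.7% of all genes tested, and a residue of 1 to 2 CPM stayed in each of the named genes, unlike the dyneins above. With nicd of experiment 2 left out 15 were called lower.

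**Figure D3:**
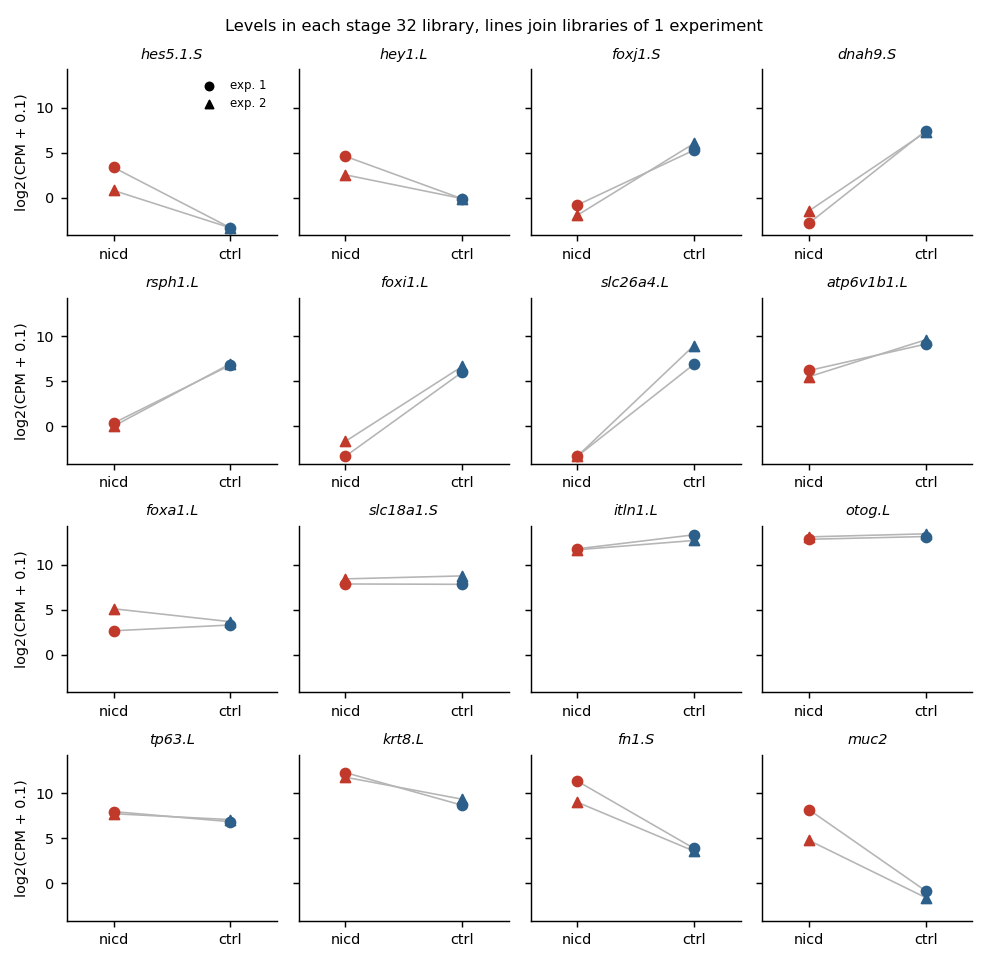
Each panel shows 1 gene at stage 32 as log2(CPM + 0.1), nicd libraries (red) left of ctrl libraries (blue), circles for experiment 1, triangles for experiment 2 and grey lines joining libraries of 1 experiment; atp6v1b1.L, rsph1.L and slc18a1.S were picked for the plot after their values were seen. Foxj1.S, dnah9.S, rsph1.L, foxi1.L and slc26a4.L drop to the bottom in nicd, itln1.L, otog.L, tp63.L and slc18a1.S were not called, with itln1.L lower and tp63.L higher in both nicd libraries, and krt8.L, fn1.S and muc2 stand higher.

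Ionocyte regulators were mostly lower, with exceptions within the foxi family. All 13 copies passed the filter. Of these, 7 were called lower and 3 higher (53.8% and 23.1%, against 4.05% and 1.77% of all genes). Foxi1.L, the master regulator of ionocytes, had 0 and 0.216 CPM in nicd explants, against 64.98 and 101 CPM in ctrl explants (log2 fold change -9.67 ± 1.70, adjusted p = 0.000361), and foxi1.S had 0 and 0.216 CPM in nicd explants, against 28.2 and 55.6 CPM in ctrl explants (log2 fold change -8.68 ± 1.43, adjusted p = 0.000175). Neither copy had a count in nicd of experiment 1, and the ctrl libraries stood far above both nicd libraries. Dmrt2.S, a transcription factor of ionocytes, had 0.0867 and 0.0540 CPM in nicd explants, against 28.7 and 31.4 CPM in ctrl explants (log2 fold change -8.66 ± 1.00, adjusted p = 1.41e-06); dmrt2.L did the same at a log2 fold change of -8.45. Ubp1.L, another ionocyte transcription factor, chosen after its values were seen, had 0.347 and 0.108 CPM in nicd explants, against 16.6 and 57.9 CPM in ctrl explants (log2 fold change -7.27 ± 1.47, adjusted p = 0.00174).

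The 3 copies called higher belong to foxi genes that act in early ectoderm. Foxi4.2.L had 18.6 and 8.48 CPM in nicd explants, against 0 and 0.0772 CPM in ctrl explants. The ratio was 554-fold, with a 95% exact counting interval of 153 to 4577 since ctrl held 2 counts (adjusted p = 1.48e-06). Foxi2.S had 6.98 and 5.13 CPM in nicd explants, against 0.190 and 0 CPM in ctrl explants (log2 fold change 5.66 ± 1.34, adjusted p = 0.00864). Foxi4.2.S had 8.08 and 2.92 CPM in nicd explants, against 0.645 and 1.31 CPM in ctrl explants (log2 fold change 2.54 ± 0.68, adjusted p = 0.0219). Ctrl libraries were near 0 where nicd libraries held transcripts, the reverse of foxi1. Foxi4.1.L, not in the list but among the largest rises, had 81.4 and 33.7 CPM in nicd explants, against 0.304 and 0 CPM in ctrl explants (log2 fold change 8.21 ± 1.07, adjusted p = 7.54e-06). Without ctrl of experiment 2 the call of foxi2.S was lost (adjusted p = 0.129) and the list held 1 higher call; foxi4.2.S lost its call there (0.0694), without ctrl of experiment 1 (0.31) and without nicd of experiment 1 (0.439).

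Ion carriers differed in how far they fell. Of 31 copies tested (of 37), 9 were called lower (29.0%, against 4.05% of all genes). With a block term per stage 12 were lower and 2 higher, against 8.65% and 6.51% of all genes. Slc26a4.L, the chloride-bicarbonate exchanger pendrin of beta-type ionocytes, had 0 and 0 CPM in nicd explants, against 119.8 and 507 CPM in ctrl explants. No count was left in nicd explants, at least 6855-fold lower than in ctrl (log2 fold change -16.60 ± 1.95, adjusted p = 4.16e-06), and the ctrl libraries differed between the experiments. The log2 fold change of slc26a4.L likewise depends on the prior count. Ca2.S, a carbonic anhydrase that supplies protons and bicarbonate, had 0 and 0.486 CPM in nicd explants, against 361 and 669 CPM in ctrl explants (log2 fold change -11.13 ± 1.31, adjusted p = 1.75e-06), and ca2.L had 0 and 0.432 CPM in nicd, against 347 and 545 CPM in ctrl (log2 fold change -11.10 ± 1.67, adjusted p = 5e-05). Bsnd.S, a chloride channel subunit, had 0 and 0 CPM in nicd explants, against 8.49 and 11.2 CPM in ctrl explants, at least 260.0-fold lower.

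The other carriers named fell by less on the log2 scale, though ca12.L and rhcg.S were at or below 0.972 CPM in both nicd libraries. Slc4a1.L, the anion exchanger of alpha-type ionocytes and red cells, had 8.28 and 12.8 CPM in nicd explants, against 133 and 123 CPM in ctrl explants (log2 fold change -3.62 ± 0.38, adjusted p = 4.42e-07). Ca12.L, a membrane carbonic anhydrase, had 0.217 and 0.972 CPM in nicd explants, against 17.9 and 70.1 CPM in ctrl explants (log2 fold change -6.22 ± 1.16, adjusted p = 0.000719). Rhcg.S, an ammonia channel, had 0.173 and 0.648 CPM in nicd explants, against 11.1 and 14.6 CPM in ctrl explants (log2 fold change -4.99 ± 0.87, adjusted p = 0.000891). Its other copy rhcg.L had 5.89 and 5.73 CPM in nicd explants, against 25.9 and 23.7 CPM in ctrl explants without overlap, as for 46.7% of all genes. It missed the threshold (log2 fold change -2.11 ± 0.75, adjusted p = 0.114) and passed with the experiment as a block (0.015 with 1 term, 0.00274 with a term per stage).

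Most subunits of the proton pump were lower. Of 36 V-ATPase copies tested (of 37), 22 were called lower (61.1%, against 4.05% of all genes). The summed level of the list was 1768 and 1725 CPM in nicd explants, against 5249 and 7142 CPM in ctrl explants. The 4 largest falls of the list were in atp6v0a4.L, atp6v1c2.L, atp6v0d2.L and atp6v1g3.L, isoforms known from intercalated cells of the mammalian kidney. Atp6v0a4.L had 0.0867 and 0.270 CPM in nicd explants, against 227 and 384 CPM in ctrl explants (log2 fold change -10.77 ± 1.26, adjusted p = 1.63e-06). Atp6v1c2.L had 0.910 and 0.972 CPM in nicd explants, against 244 and 446 CPM in ctrl explants (log2 fold change -8.51 ± 0.73, adjusted p = 2.14e-08), and atp6v0d2.L had 0.694 and 0.621 CPM in nicd, against 129 and 190.1 CPM in ctrl (log2 fold change -7.92 ± 0.55, adjusted p = 1.29e-09). All 4 libraries of each gene fell into separate ranges, and atp6v1g3.L did so too (-7.35).

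Small secretory cell genes gave no call. In the edgeR test 0 of 20 copies tested (of 24) passed, against 5.82% of all genes. At an unadjusted p under 0.05 the numbers were 1 higher and 3 lower, and DESeq2 called 1 higher and 1 lower. With a block term per stage 1 was higher and 1 lower, against 6.51% and 8.65% of all genes. Foxa1, the regulator of these cells, was at 6.28 and 34.7 CPM in nicd explants, against 9.87 and 12.8 CPM in ctrl explants for foxa1.L, and at 8.39 and 18.8 CPM in nicd explants, against 12.6 and 16.5 CPM in ctrl explants for foxa1.S. The nicd libraries lay on both sides of the ctrl libraries for each copy (adjusted p = 0.673 and 1). Tph1.S, the enzyme that makes serotonin, had 1.13 and 3.13 CPM in nicd explants, against 4.44 and 2.86 CPM in ctrl explants (adjusted p = 0.844), and the groups overlapped. The list's summed level was 1103 and 1505 CPM in nicd explants, against 1171 and 1382 CPM in ctrl explants.

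Of the goblet cell genes only muc2 was called. Itln1.L, the secreted lectin that marks goblet cells of this epidermis, had 3529 and 3293 CPM in nicd explants, against 10405 and 6709 CPM in ctrl explants, without overlap, but did not pass (log2 fold change -1.35 ± 0.58 (adjusted p = 0.225)). Otog.L, a mucin-like protein of its mucus, had 7363 and 8864 CPM in nicd explants, against 9099 and 11211 CPM in ctrl explants. Its groups did not overlap either, as for 46.7% of all genes, and it did not pass (log2 fold change -0.33 ± 1.07, adjusted p = 0.959). Spdef.S, a transcription factor of mucous cells, had 11.8 and 12.3 CPM in nicd explants, against 3.51 and 3.59 CPM in ctrl explants (adjusted p = 0.0994, and 0.0174 with a block term per stage). Of the 21 copies tested (of 24), 1 was called higher (4.76%, against 1.77% of all genes). With 1 block term 3 were, where 859 of all 31647 genes were higher, and 5 with a term per stage, where 6.51% of all genes were higher. Muc2, the gel-forming mucin of the intestine, had 289 and 27.1 CPM in nicd explants, against 0.456 and 0.232 CPM in ctrl explants (log2 fold change 8.74 ± 1.23, adjusted p = 2.29e-05), which is near 0 in ctrl and uneven between the nicd libraries. Agr2, a folding helper of mucins that the cement gland also makes, was singled out after its values were seen and was higher in both nicd libraries for agr2.S (568 and 349.7 CPM in nicd, against 83.99 and 87.4 CPM in ctrl; adjusted p = 0.0588, and 0.000788 with a block term per stage).

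Basal cell and basement membrane genes leaned higher. Of 26 copies tested (of 30), 3 were called higher (11.5%, against 1.77% of all genes). With 1 block term 5 were, where 859 of all 31647 genes were higher. With a block term per stage 11 were higher and 2 lower, against 6.51% and 8.65% of all genes. The groups did not overlap for 21 of the 26, against 46.7% of all genes. Tp63, which maintains basal cells, had 251 and 213 CPM in nicd explants, against 115 and 135 CPM in ctrl explants for tp63.L and 226 and 184 CPM in nicd explants, against 94.4 and 119 CPM in ctrl explants for tp63.S. Both copies stood higher in both nicd libraries, yet neither passed (adjusted p = 0.715 and 0.37). Lama5.L, a laminin chain, had 585 and 580.4 CPM in nicd explants, against 99.9 and 119 CPM in ctrl explants (log2 fold change 2.40 ± 0.54, adjusted p = 0.00466). Fras1.L, a basement membrane protein, had 118 and 53.4 CPM in nicd explants, against 20.6 and 13.01 CPM in ctrl explants (log2 fold change 2.32 ± 0.53, adjusted p = 0.00542). Itgb4.S, the integrin chain of hemidesmosomes, had 45.01 and 10.2 CPM in nicd explants, against 2.96 and 0.927 CPM in ctrl explants (log2 fold change 3.77 ± 1.11, adjusted p = 0.0411). Without ctrl of experiment 2 no copy was called (adjusted p = 0.0618 for lama5.L, 0.135 for fras1.L and 0.338 for itgb4.S). Without nicd of experiment 1, fras1.L (0.196) and itgb4.S (0.504) lost theirs, and without ctrl of experiment 1, lama5.L (0.0858) and itgb4.S (0.111).

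Keratin calls were few. The summed level of the 26 copies tested (of 45, since 19 failed the filter on low counts) was 59504 and 61899 CPM in nicd explants, against 64167 and 60439 CPM in ctrl explants, and the list's median was 0.00. Within the list 5 copies were called higher (19.2%, against 1.77% of all genes). Krt8.L, the type II keratin of simple epithelia, had 5059 and 3551 CPM in nicd explants, against 411 and 653 CPM in ctrl explants (log2 fold change 3.01 ± 0.55, adjusted p = 0.000541). Its usual partner krt18.L had 1591 and 1074 CPM in nicd explants, against 9.26 and 32.7 CPM in ctrl explants (log2 fold change 6.01 ± 1.13, adjusted p = 0.000773). A copy listed as krt19 had 712 and 433 CPM in nicd explants, against 11.1 and 39.1 CPM in ctrl explants (log2 fold change 4.53 ± 0.66, adjusted p = 3.05e-05). All 3 stood above the ctrl libraries in both experiments, and their calls held with any 1 library left out; that of krt18.S (log2 fold change 4.95 ± 1.16, adjusted p = 0.00729) was lost without nicd of experiment 1 (0.0606) and without either ctrl library (0.172 and 0.0535).

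Some collagens and matrix genes of the basement membrane were higher too. The prefix col with a digit caught 44 copies tested (of 57), among them col4a3bp, which is no collagen. Of these 44, 5 were called higher (11.4%, against 1.77% of all genes). With 1 block term 7 were, where 859 of all 31647 genes were higher. With a block term per stage 9 were higher and 3 lower, against 6.51% and 8.65% of all genes. Col4a5.L, a basement membrane collagen, had 761 and 492 CPM in nicd explants, against 92.97 and 43.8 CPM in ctrl explants (log2 fold change 3.16 ± 0.62, adjusted p = 0.00116), and col4a6.L, from the same collagen network, had 413 and 305 CPM in nicd, against 71.7 and 40.7 CPM in ctrl (log2 fold change 2.65 ± 0.51, adjusted p = 0.000996). Col18a1.S, a basement membrane proteoglycan, had 321 and 177 CPM in nicd explants, against 32.3 and 38.3 CPM in ctrl explants (log2 fold change 2.81 ± 0.41, adjusted p = 3.02e-05). Nicd of experiment 1 was the highest library for each. Without ctrl of experiment 2 only 1 copy was called higher (adjusted p = 0.0593 for col4a5.L and 0.0562 for col4a6.L), and 3 were without nicd of experiment 1 and without ctrl of experiment 1. Fn1.S, fibronectin, was among the 12 largest rises of genes with a name. It had 2637 and 518 CPM in nicd explants, against 14.7 and 11.9 CPM in ctrl explants (log2 fold change 6.87 ± 0.55, adjusted p = 1.1e-08). The nicd libraries differed by several-fold, and both were far above ctrl.

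Of 36 claudin and tight junction copies (of 43), 2 were called higher and 1 lower (5.56% and 2.78%, against 1.77% and 4.05% of all genes). With a block term per stage 5 were higher and 2 lower, against 6.51% and 8.65% of all genes. Cldn5.S, called higher (adjusted p = 0.0438), lost its call whichever library was left out (0.0527 to 0.393). Cldn6.2.L, a claudin, had 95.8 and 57.7 CPM in nicd explants, against 17.3 and 15.1 CPM in ctrl explants (log2 fold change 2.23 ± 0.38, adjusted p = 0.000226). Cldn34.L was the copy called lower (0.0867 and 0.0540 CPM in nicd, against 2.73 and 4.13 CPM in ctrl; adjusted p = 0.00225, and 0.05 without nicd of experiment 2). In the edgeR test 0 of 41 copies of proliferation genes were called, against 5.82% of all genes. At an unadjusted p under 0.05 the numbers were 8 higher and 0 lower. DESeq2 called 2 higher and 0 lower, against 981 and 1705 among all genes. Of the 41 copies, 39 had a log2 fold change above 0 (as did 15418 of all 31647 genes), with a median of 0.48. Their summed level was 1173 and 1021 CPM in nicd explants, against 744 and 825 CPM in ctrl explants. With the experiment as a block 2 proliferation copies were called higher with 1 term, where 859 of all 31647 genes were. With a term per stage 7 were, where 6.51% of all genes were higher.

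Several Wnt genes were higher. Of 60 copies of ligands, Frizzled receptors, antagonists and feedback targets (of 68), 9 were called higher (15%, against 1.77% of all genes), with a median of 1.13. With 1 block term 14 were called higher, where 859 of all 31647 genes were. With a block term per stage 21 were higher and 2 lower, against 6.51% and 8.65% of all genes. The summed level of the list overlapped between the groups, at 759 and 902 CPM in nicd explants, against 879 and 639 CPM in ctrl explants. Among the ligands, wnt11.L had 17.97 and 2.43 CPM in nicd explants, against 0 and 0 CPM in ctrl explants, at least 289-fold higher (log2 fold change 11.68 ± 2.28, adjusted p = 0.00619). Wnt5a.L, a ligand that directs cell movement, had 80.5 and 24.1 CPM in nicd explants, against 0.494 and 0.0772 CPM in ctrl explants (log2 fold change 7.35 ± 1.99, adjusted p = 0.0239), and wnt5a.S had 4.96 and 0.891 CPM in nicd, against 0.0380 and 0 CPM in ctrl (log2 fold change 6.73 ± 1.26, adjusted p = 0.000711). Rspo3.L, which strengthens Wnt receptors, had 8.08 and 0.810 CPM in nicd explants, against 0.0380 and 0.0772 CPM in ctrl explants (log2 fold change 6.28 ± 1.59, adjusted p = 0.014). In all 4 genes the nicd library of experiment 1 was several-fold above that of experiment 2, and ctrl was at or near 0. The list gave 3 calls without nicd of experiment 1, 2 without ctrl of experiment 1 and 4 without ctrl of experiment 2. Without nicd of experiment 1 the adjusted p was 0.0781 for wnt11.L, 0.148 for wnt5a.L and 0.331 for rspo3.L. Without ctrl of experiments 1 and 2 it was 0.0814 and 0.0552 for wnt11.L, 0.138 and 0.23 for wnt5a.L, and 0.21 and 0.116 for rspo3.L. Wnt5a.S stayed called in all 4.

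Of 34 BMP pathway copies (of 35), 2 were called higher (5.88%, against 1.77% of all genes), and 5 with a block term per stage, where 6.51% of all genes were. With any 1 library left out the list held no call. Bmp2.S, a ligand, had 8.78 and 8.83 CPM in nicd explants, against 1.56 and 1.97 CPM in ctrl explants (log2 fold change 2.31 ± 0.58, adjusted p = 0.0131), and nog.L, the secreted antagonist Noggin, had 17.2 and 9.24 CPM in nicd explants, against 1.29 and 1.08 CPM in ctrl explants (log2 fold change 3.45 ± 1.00, adjusted p = 0.0383). Neither gene's groups overlapped, as was so for 46.7% of all genes. Both calls were lost whichever library was left out, at log2 fold changes of 2.18 to 2.40 for bmp2.S and 2.90 to 3.81 for nog.L. In the list of p53 and stress genes 1 of 24 copies was called lower, which is 4.17% and near the 4.05% of all genes. It was hsp70.L, at 0.0433 and 0.0540 CPM in nicd, against 0.380 and 0.541 CPM in ctrl explants (log2 fold change -3.16 ± 0.76, adjusted p = 0.00892). Its call was lost without nicd of experiment 1 (0.149), nicd of experiment 2 (0.072) and ctrl of experiment 2 (0.0504).

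Markers of other tissues of the head and body were read for cells that an epidermal explant might hold. Of 11 cement and hatching gland copies tested (of 13), 6 were called higher (54.5%, against 1.77% of all genes). With 1 block term 8 were, where 859 of all 31647 genes were higher, and 9 with a term per stage, where 6.51% of all genes were higher. The summed level was 1922 and 968 CPM in nicd explants, against 193 and 272 CPM in ctrl explants. The cement gland is the mucus-secreting organ at the front of the tadpole head. Ag1.L, an anterior gradient gene that marks it, had 275 and 110.1 CPM in nicd explants, against 1.01 and 3.75 CPM in ctrl explants (log2 fold change 6.40 ± 1.15, adjusted p = 0.00048). Otx1.L, an anterior homeobox gene, had 38.2 and 17.02 CPM in nicd explants, against 1.21 and 1.81 CPM in ctrl explants (log2 fold change 4.195 ± 0.53, adjusted p = 5.16e-06). Pitx1.L, a homeobox gene of the gland, had 80.1 and 21.7 CPM in nicd explants, against 0.968 and 3.44 CPM in ctrl explants (log2 fold change 4.57 ± 0.97, adjusted p = 0.00312). Its call was lost without nicd of experiment 1 (0.0901) and without ctrl of experiment 1 (0.0978), and the list then held 3 calls in each case. The part of cement gland cells in the other rises, muc2 and agr2 among them, was not tested.

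Neural, neural crest and mesoderm lists held 1 call higher each (of 26, 13 and 18 copies tested, or 3.85%, 7.69% and 5.56%, against 1.77% of all genes). The neural list held 3 without nicd of experiment 2. The summed level of the neural list was 538 and 368 CPM in nicd explants, against 64.6 and 119 CPM in ctrl explants. Neural crest markers summed to 231 and 183 CPM in nicd explants, against 67.1 and 67.4 CPM in ctrl explants, and mesoderm markers to 198 and 334 CPM in nicd explants, against 37.04 and 67.4 CPM in ctrl explants. Ncam1.S, a neural adhesion molecule, had 4.68 and 3.62 CPM in nicd explants, against 0.418 and 0.386 CPM in ctrl explants (log2 fold change 3.34 ± 0.72, adjusted p = 0.00323). Snai1.S, a regulator of cell detachment in neural crest, had 135 and 84.9 CPM in nicd explants, against 16.9 and 16.9 CPM in ctrl explants (log2 fold change 2.69 ± 0.57, adjusted p = 0.00272), and nkx2-5.S, a heart regulator, had 77.3 and 67.1 CPM in nicd explants, against 2.28 and 3.94 CPM in ctrl explants (log2 fold change 4.55 ± 1.06, adjusted p = 0.00758). The groups were apart in all 3 genes, as in 46.7% of all genes tested. Without ctrl of experiment 2 none of them was called (adjusted p = 0.0672, 0.0576 and 0.0749 in that order), and without ctrl of experiment 1 neither ncam1.S (0.059) nor nkx2-5.S (0.146). The neuronal gene elavl4.L was lower, with no count in nicd explants (0 and 0 CPM in nicd, against 0.266 and 1.27 CPM in ctrl; adjusted p = 0.00412). Its call was lost without nicd of experiment 1 (0.0811) or of experiment 2 (0.0502). In the edgeR test 0 of 15 endoderm copies and 0 of 12 immune copies were called, against 5.82% of all genes. At that share 0 calls in lists this short carry little weight. At an unadjusted p under 0.05 the numbers were 1 higher and 0 lower in each list. DESeq2 called 1 higher and 0 lower among endoderm copies and 0 higher and 0 lower among immune copies, against 981 and 1705 among all genes. Endoderm markers summed to 3.88 and 3.11 CPM in nicd explants, against 4.08 and 7.99 CPM in ctrl explants. What these tissues contributed to the other rises was not tested.

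The 12 largest falls and rises were ranked among well-expressed genes with a gene name and the same sign in both experiments. Entries known only by a LOC or gene number were left out. One of these, LOC108703229, had 0 and 0 CPM in nicd explants, against 283 and 147 CPM in ctrl explants. The 12 falls so ranked were led by slc26a4.L and were made up of genes with no nicd count at all. Odf3.L, named for the outer dense fibre of sperm tails, had 0 and 0 CPM in nicd explants, against 52.99 and 62.5 CPM in ctrl explants, at least 1556-fold lower. Lrrc18.L, spata4.L, tcte1.L and erich3.S, genes known from testis or cilia, were at least 592-fold, 543-fold, 455-fold and 323-fold lower. The 12 largest rises included crx.S, a homeobox gene of photoreceptors (at least 56.1-fold higher; adjusted p = 0.0149, and 0.115 without nicd of experiment 1, 0.202 and 0.103 without ctrl of experiments 1 and 2), besides foxi4.1.L, foxi4.2.L, fn1.S, muc2, krt18.L and ag1.L described above. Of the 1843 calls, 49 of those higher and 172 of those lower were in a list, and 512 and 1110 were in none. Among 5167 genes with both an L and an S copy tested, 523 had a copy called and 128 had both, of which 127 in 1 direction. Reads shared between near-identical copies could make copies move together.

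Against stage 25 a single gene was called. At stage 25 the same contrast had called 3893 genes (12.3%), 1647 higher and 2246 lower. Of the stage 32 calls, 1441 were also called at stage 25 in the same direction and 2 in the opposite one; that is 78.2% of the calls at stage 32 and 37.0% of those at stage 25. In the direct test of the change between both stages, 1 gene was called (0.00316% of those tested), while 1664 genes had an unadjusted p under 0.05. With the experiment as a block it was 6 genes with 1 term and 185 with a term per stage. In a fit of the compared groups alone it was 0, with or without the block. The gene was pck1.L, phosphoenolpyruvate carboxykinase, an enzyme of glucose synthesis. It had 62.8 and 31.5 CPM in nicd, against 7.70 and 6.71 CPM in ctrl at stage 25, and 13.5 and 31.96 CPM in nicd, against 244 and 129 CPM in ctrl at stage 32. Nicd explants were thus above ctrl at the first of these stages and below ctrl at the second, by 2.72 and -3.07 on the log2 scale, a difference of -5.80 (adjusted p = 0.00154, and 0.0547 without nicd of experiment 1 at stage 32). DESeq2 called 80 genes for this difference.

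Against stage 16, when cell fates are being set, 400 genes differed in their nicd effect (1.26%: 226 or 0.714% with a more positive effect at stage 32, 174 or 0.550% with a more negative one). At stage 16 itself 3143 genes were called (9.93%: 858 or 2.71% higher, 2285 or 7.22% lower), and 997 of the stage 32 calls, or 54.1%, were among them in the same direction and 15 in the opposite one. They make up 31.7% of the stage 16 calls. With a block term per stage 2011 genes differed between the stages. Leaving out nicd of experiment 1, ctrl of experiment 1 or ctrl of experiment 2 at stage 32 left 136, 131 and 152, and leaving out nicd of experiment 2 left 232.

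**Figure D4:**
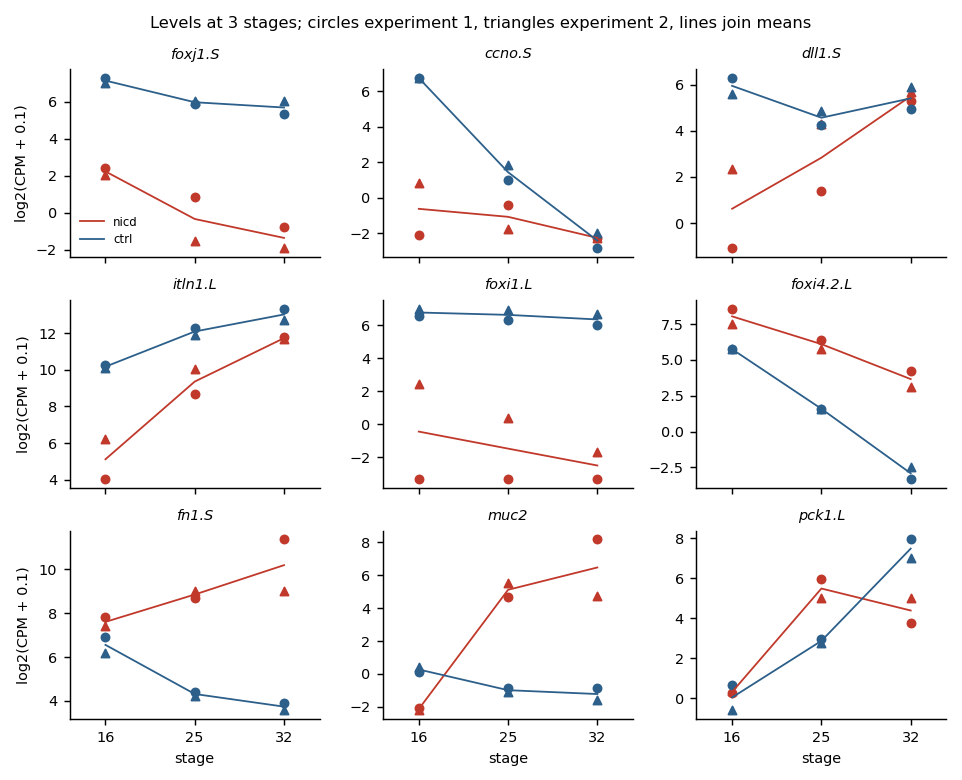
Each panel gives 1 gene as log2(CPM + 0.1) at stages 16, 25 and 32 in nicd (red) and ctrl explants (blue), with circles for experiment 1, triangles for experiment 2 and lines through the means of the log values. Ccno.S and dll1.S end with both groups together, and foxj1.S and foxi1.L stay apart. The gap of fn1.S widens after stage 16, muc2 crosses between stages 16 and 25, and pck1.L crosses between stages 25 and 32.

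For several early fate genes the effect at stage 32 was less negative than at stage 16. Ccno.S had 0.138 and 1.67 CPM in nicd, against 106 and 108 CPM in ctrl at stage 16, and was near 0 in all 4 libraries at stage 32. The effect changed by 7.41 ± 1.69, adjusted p = 0.0248. Here it was ctrl that emptied. Dll1.S had 0.367 and 4.97 CPM in nicd, against 78.2 and 48.4 CPM in ctrl at stage 16, 2.50 and 19.4 CPM in nicd, against 19.02 and 29.2 CPM in ctrl at stage 25, and 39.2 and 51.7 CPM in nicd, against 30.3 and 58.95 CPM in ctrl at stage 32, a change of effect of 4.73 ± 1.15, adjusted p = 0.0375. Here nicd explants came up to the ctrl level. Hes1.L did likewise in part, with 0.229 and 1.07 CPM in nicd, against 16.8 and 21.8 CPM in ctrl at stage 16 (change 4.37 ± 1.06, adjusted p = 0.0375), and so did the goblet cell lectin itln1.L, with 16.2 and 73.8 CPM in nicd, against 1230.2 and 1086 CPM in ctrl at stage 16, 411 and 1049 CPM in nicd, against 5043 and 3799.8 CPM in ctrl at stage 25 and 3529 and 3293 CPM in nicd, against 10405 and 6709 CPM in ctrl at stage 32 (change 3.43 ± 0.83, adjusted p = 0.0365). CPM of itln1.L was higher at each later stage in both groups, and the log2 fold change was -4.78 at stage 16, -2.61 at stage 25 and -1.35 at stage 32; the step after stage 25 did not pass (adjusted p = 1). Rfx2.S had 19.9 and 10.9 CPM in nicd, against 66.9 and 45.6 CPM in ctrl at stage 16 and no call at stage 32 (change 2.29 ± 0.57, adjusted p = 0.0417). These 5 calls were all lost without ctrl of experiment 1 at stage 32 (adjusted p from 0.104 for itln1.L to 0.232 for dll1.S) and without ctrl of experiment 2 (0.0503 for ccno.S to 0.199 for itln1.L). They were also lost without nicd of experiment 2 (0.0528 for rfx2.S to 0.369 for hes1.L) and, except for hes1.L (0.0219), without nicd of experiment 1 (0.0848 for dll1.S to 0.220 for ccno.S).

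In the centriole list 8 copies had a more positive effect at stage 32, namely plk4.S, poc5.L, cenpj.L, poc1a.L, cep76.L, cep164.S, ccp110.S and odf2.L, chosen after their values were seen. Their stage 16 log2 fold changes ran from -3.85 (plk4.S) to -1.57 (cep164.S), and poc5.L and odf2.L were still called lower at stage 32. Medians of the list went with this: -1.57 at stage 16, -1.03 at stage 25 and -0.17 at stage 32. For multiciliated cell regulators the medians were -2.70, -1.19 and -0.29. A median nearer 0 does not tell a rise in nicd from a fall in ctrl. Gmnc, mcidas and ccno were at or below 0.190 CPM in both groups at stage 32. Genes of the finished cilium had no such course, with -3.76, -5.17 and -5.63 for radial spoke and central pair genes and -3.07, -3.54 and -3.13 for dyneins. Tested against stage 16, the effect was more negative for 11 of 68 radial spoke and central pair copies and for 6 of 38 dynein copies. It was more positive for 0 and 1 of them. Of all genes, 0.550% had a more negative and 0.714% a more positive effect.

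**Figure D5:**
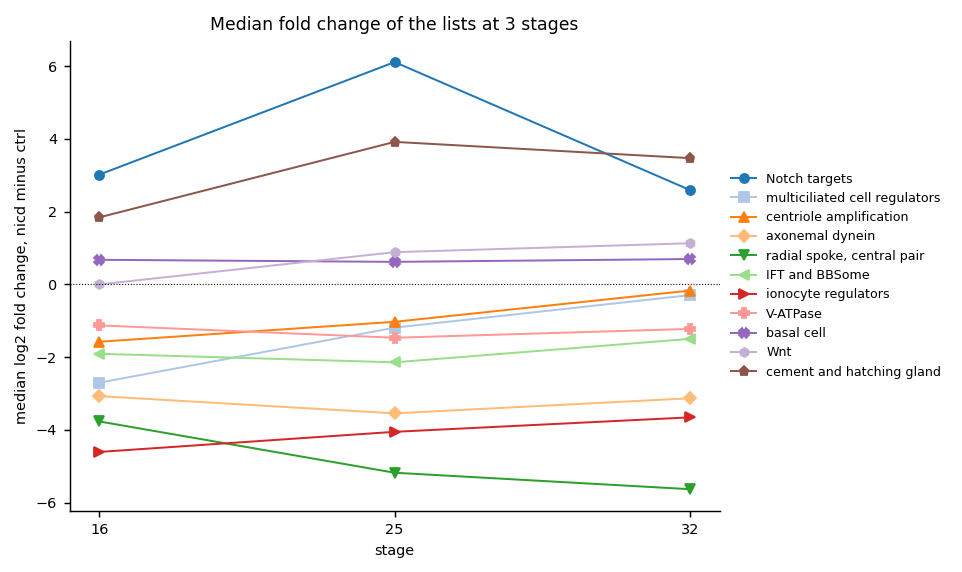
Lines give the median log2 fold change (nicd minus ctrl) of the tested copies of each list at stages 16, 25 and 32. Lists of multiciliated regulators and centriole genes approach 0 by stage 32, which does not tell a rise in nicd from a fall in ctrl. Axonemal, ionocyte and V-ATPase lists stay below 0, and the Notch target median is highest at stage 25, at 6.11.

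Other effects grew after stage 16, and that of muc2, not called at stage 16, changed sign. Foxj1.L had 5.36 and 6.49 CPM in nicd, against 48.6 and 39.2 CPM in ctrl at stage 16 and a more negative effect at stage 32 (change -3.91 ± 0.92, adjusted p = 0.0311), and slc4a1.L had 10.1 and 11.9 CPM in nicd, against 20.4 and 36.98 CPM in ctrl at stage 16 (change -2.20 ± 0.50, adjusted p = 0.0226), with a higher ctrl level at stage 32 and a nicd level near that of stage 16. Foxi4.2.L had 382 and 181 CPM in nicd, against 52.99 and 54.4 CPM in ctrl at stage 16, 85.3 and 55.1 CPM in nicd, against 2.90 and 2.92 CPM in ctrl at stage 25, and a change of effect of 6.47 ± 1.25, adjusted p = 0.00795 at stage 32. It decayed in both groups and more slowly in nicd. Foxi4.1.L changed by 6.37 ± 1.23, adjusted p = 0.00795. Fn1.S had 224 and 168 CPM in nicd, against 121 and 72.7 CPM in ctrl at stage 16 and 415 and 514 CPM in nicd, against 21.04 and 18.6 CPM in ctrl at stage 25 (change 5.92 ± 0.65, adjusted p = 7.45e-05). Muc2 had 0.138 and 0.119 CPM in nicd, against 1.01 and 1.217 CPM in ctrl at stage 16 and 25.9 and 46.02 CPM in nicd, against 0.448 and 0.365 CPM in ctrl at stage 25 (change 11.86 ± 1.63, adjusted p = 0.000497). Nicd of experiment 1 climbed at each step in both genes, whereas nicd of experiment 2 was at about the same level of fn1.S at stages 25 and 32 and held less muc2 at stage 32. The calls of fn1.S and muc2 held with any 1 stage 32 library left out. That of foxi4.2.L was lost without ctrl of experiment 1 (adjusted p = 0.133) and that of foxi4.1.L without ctrl of experiment 2 (0.0595). Foxj1.L lost its call in each case (0.0617 to 0.220), and slc4a1.L without nicd of experiment 1 (0.160), ctrl of experiment 1 (0.109) and ctrl of experiment 2 (0.0547).

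Levels of several Notch targets in nicd were highest at stage 16 or 25. Hes5.1.S had 390.1 and 263 CPM in nicd, against 7.18 and 4.05 CPM in ctrl at stage 16, 247 and 31.3 CPM in nicd, against 0.139 and 0.0456 CPM in ctrl at stage 25, and 10.3 and 1.67 CPM in nicd, against 0 and 0 CPM in ctrl at stage 32. Its level in nicd was lower at each later stage. Hey1.L had 263 and 281 CPM in nicd, against 17.5 and 12.3 CPM in ctrl at stage 16 and 486 and 103 CPM in nicd, against 4.23 and 4.47 CPM in ctrl at stage 25, and nrarp.S had 806 and 580.0 CPM in nicd, against 76.1 and 60.4 CPM in ctrl and 639 and 129 CPM in nicd, against 33.4 and 35.96 CPM in ctrl at those stages. Of the 31 target copies, 14 were called higher and 4 lower at stage 16, where 2.71% and 7.22% of all genes were. At stage 25 it was 22 and 1, where 12.3% of all genes were called in either direction. At stage 32 it was 7 and 1, against 1.77% and 4.05% of all genes. Tested against stage 16, the effect on 1 copy, hes1.L, was more positive at stage 32 and on none more negative. Tested against stage 25 no copy differed by the adjusted p.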

How the data were processed

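RNA of 40 animal cap libraries (5 treatments, 4 stages, 2 experiments) was sequenced from poly-A selected, unstranded libraries made from 500 ng of RNA, per the labels' protocols. The authors deposited raw read counts per gene for each library, 51017 gene IDs of which 48349 have a symbol; the submitters' processing notes name FastQC 0.11.5, STAR 2.6.0b-1, featureCounts 1.6.3 and DESeq2 1.22.1. The genome build, the annotation and the treatment of reads that map to both the L and the S copy of a gene are not given in the sources used here. Without strand, reads from overlapping and antisense genes cannot be told apart.

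All 40 libraries were fitted together with edgeR 4.0.16 in R 4.3.3 as 20 groups of 2 (TMM factors, filterByExpr by group, quasi-likelihood test, 20 residual degrees of freedom), leaving 31648 genes, or 31647 without notch1.S. The 3 comparisons (stage 32, and its effect minus that at stages 25 and 16) were each adjusted by Benjamini-Hochberg over all genes. Each error after ± is the absolute log2 fold change divided by the square root of the F statistic of the test. It was not estimated directly by the fit. CPM is counts over the library's total. A gene with no count in a group is given a fold against a floor of 3 counts over that group, and one with 1 to 3 counts a 95% exact interval for counting error only. The log2 fold change and error of a gene with no count in a group depend on the prior count of the fit and are not measured sizes. Lists were matched by symbol, with prefixes followed by a digit. Lists are described by counts and medians, with no set test. Summed levels of a list take all its copies in the table, also those that failed the filter. Genes named are the copies of 28 fixed genes found in the table, the 12 largest called changes per direction with a mean log2 CPM of at least 3, and up to 4 called genes per list and direction. Entries known only by a LOC or gene number, and genes with opposite signs in the 2 experiments, were left out of the 12. Up to 4 genes per direction called for the difference between stages 32 and 25 were named too, which gave pck1.L. Genes named outside these rules were chosen after their values were seen, and the copies of the tissue markers stand as a list. The members and lists were chosen with earlier results of these data known.

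The experiment numbers pair the samples, since the labels tie each number to its own females and fertilization; deviations of nicd and ctrl libraries of 1 experiment from their group means correlated at 0.476, 0.369 and 0.381 at stages 16, 25 and 32. The main fit held no experiment term and so did not use this pairing. Each group holds 2 libraries, so its p-values measure the spread between the batches of 2 experiments, with the spread shared over 20 groups. In the fits with the experiment as a block, p-values measure the spread left after the experiment term. The fitting script was run on simulated counts with the same spread for every gene and no difference between experiments. That setting differs from these data, so it cannot tell how many of the calls are false. The alternatives were 11 planned and 2 added later. Software was Python 3.11.15, pandas 2.3.3, scipy 1.17.1, matplotlib 3.10.9 and DESeq2 1.42.0.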

Additional observations from a re-analysis of the deposited data

Results flagged for a closer look

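The nicd effect differed between stages for the genes that follow, each by a test of the difference itself in the edgeR fit (nicd minus ctrl at the later stage, less the same at the earlier). Against stage 25 this was pck1.L, with a difference of -5.80 (adjusted p = 0.00154). Against stage 16 the effect at stage 32 was more positive for rfx2.S (2.29), ccno.S (7.41), dll1.L (5.78), dll1.S (4.73), hes1.L (4.37) and itln1.L (3.43), with adjusted p from 0.0206 to 0.0417. It was also more positive for foxi4.2.L (6.47), foxi4.1.L (6.37), fn1.S (5.92) and muc2 (11.86), with adjusted p from 7.45e-05 to 0.00795. It was more negative for slc4a1.L (-2.20), foxj1.L (-3.91), theg-like.S (-8.59), spata4.L (-8.54) and pck1.L (-3.12), with adjusted p from 0.0226 to 0.0392. Theg-like.S and spata4.L had no count in nicd explants at stage 32, so their differences depend on the prior count of the fit and are not bounds. Of the 15 differences against stage 16, 13 were lost when 1 of the 4 stage 32 libraries was left out (10 without nicd of experiment 1, 8 without nicd of experiment 2, 12 without ctrl of experiment 1 and 11 without ctrl of experiment 2), and those of fn1.S and muc2 were not.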

How the results depend on the processing

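Stage 32 gave 1843 calls, 561 higher and 1282 lower. There were 1834 with RLE size factors, 1802 with library totals in place of TMM and 2000 when all genes with a count were kept. DESeq2 gave 2686 (981 higher), summed L and S copies 1620, and a fit of the compared groups alone 1449. With the replicate block of 1 experiment term 859 were higher. With a block term per stage the calls were 4798, 2061 higher and 2737 lower, and with the block in the fit of the compared groups 3765, 1518 higher and 2247 lower. Leaving out 1 library gave 989 to 1329 calls, 180 to 418 higher and 797 to 1027 lower. Differences from stage 25 (1 call) numbered 26 with every gene of at least 1 count, 80 with DESeq2, 6 with the block of 1 term and 185 with a term per stage. They numbered 0 in the fit of the compared groups, 0 there with the block, and 0 to 4 with 1 library left out. Differences from stage 16 (400 calls) numbered, in the same order, 690, 965, 694, 2011, 81, 143 and 131 to 232. The cause was not tested. The block term per stage and library totals were chosen after seeing the data.

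All 98 called named genes kept their call with RLE, library totals and both blocks over all libraries. Those blocks added calls for 2 (1 term) and 7 (a term per stage) of 30 named genes not called, and changed no other call among the named genes. DESeq2 lost 1, the fit with every gene of at least 1 count 2, and the fit of the compared groups 19 of 97, or 5 with the block; in the same order they added calls for 3, 3, 2 and 7 of the named genes not called. Leaving out 1 library lost 11 to 30, and none of these changed sign. Named genes without a call crossed 0 with 1 library left out, over -1.05 to 0.33 for ccno.L, -0.48 to 1.35 for ccno.S, -0.36 to 0.48 for dll1.S, -0.88 to 1.58 for foxa1.L, -0.82 to 0.33 for foxa1.S, -0.63 to 0.29 for foxn4.L, -2.32 to 0.12 for hes1.L, -1.19 to 0.23 for mcidas.S and -2.04 to 0.42 for myb.S. RLE and library totals moved the median of all genes by 0.005 and 0.013. The planned description of promoter motifs was not run. A floor of 3 counts equals 0.0570 to 0.116 CPM in the 4 libraries, and differences below it were not detectable.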

Other observations

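Outside the lists, 3 genes whose effect differed from that at stage 16 were picked after their values were seen. Tnc.L, the matrix protein tenascin, had 1.93 and 3.60 CPM in nicd, against 0.715 and 1.30 CPM in ctrl at stage 16, and 66.7 and 23.5 CPM in nicd, against 0.304 and 0.232 CPM in ctrl at stage 32, a change of effect of 5.93 (adjusted p = 0.000951). Tbx20.L, a T-box factor of the heart, had 1.1 and 2.50 CPM in nicd, against 20.4 and 3.17 CPM in ctrl at stage 16, and 14.3 and 6.78 CPM in nicd, against 0 and 0 CPM in ctrl at stage 32, a change of 14.58 (adjusted p = 0.00267) that depends on the prior count, as ctrl held no count at stage 32. The gene listed as atp6a1 had 404 and 591 CPM in nicd, against 525 and 722 CPM in ctrl at stage 16, and 4.38 and 22.6 CPM in nicd, against 672 and 1059 CPM in ctrl at stage 32, a change of -5.64 (adjusted p = 0.0422).

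Cetn4.L stood apart in nicd of experiment 1 at each stage used here, with 8659, 6452 and 1742 CPM at stages 16, 25 and 32. In nicd of experiment 2 it had 14.5, 2.95 and 2.40 CPM at the same stages. The ctrl libraries had 279 and 227 CPM at stage 16 and 156 and 134 CPM at stage 25. Whether these reads come from the embryos' own gene was not tested.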
